A study of Rattus norvegicus with 12 samples.

Results

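The genes described here encode the proteins of the cytoplasmic ribosome. Members were the non-control probes whose gene name in the array files starts with Rpl or Rps and a digit, or with Rplp, with the S6 kinases (Rps6k) left out. Where a gene had several probes, the brightest was used. The rule found 74 of 35561 gene names, carried by 110 of 41012 probes. Of these, 73 genes were well above background on at least 5 of 12 arrays and were tested with all 20439 genes that passed this filter. The exception was Rpl37a, a protein of the large subunit, whose only probe was well above background on 4 arrays and read between 3.65 and 5.55 on the log2 scale.

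The arrays measured RNA from the striatum of 12 male rats, 1 array a rat, in 4 groups of 3. All groups carried a lesion on the left side from an injection into the substantia nigra of 9 µg of 6-OHDA, which kills dopamine neurons, and the 6-OHDA group had no other treatment. The HFS group had high frequency stimulation of the subthalamic nucleus for 5 days (130 Hz, 80 µs pulses, 60 µA). The DOPA group received the dopamine precursor L-DOPA at 25 mg/kg with benserazide at 12.5 mg/kg, in 2 daily injections over 19 days. Rats of the DOPA/HFS group had L-DOPA and stimulation. The labels give no strain or age, and no group without the lesion was on these arrays. The comparisons ask what each treatment does in the lesioned striatum, with 6-OHDA as the shared control. By the authors' account, only the HFS and DOPA/HFS rats on these arrays were implanted with an electrode. Stimulation and implantation therefore cannot be told apart.

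Cytoplasmic ribosomes translate messenger RNA, and each has a large and a small subunit in which ribosomal RNA is covered by ribosomal proteins. Many of the messengers for these proteins begin with a run of C and T bases, the terminal oligopyrimidine tract, through which the kinase complex mTORC1 controls how strongly they are translated. In the striatum, phosphorylation of the small subunit protein S6 is a widely used readout of signalling after L-DOPA, but arrays measure RNA and neither phosphorylation nor translation.

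Values are log2 signals after quantile normalization, so a difference between groups is a log2 fold change, and standard errors (SE) come from a limma fit of all 12 arrays. The arrays sat on 3 slides, each with 1 array of every group, and since each group always had the same slide position, position and treatment cannot be told apart. The number of arrays limits the precision. One array stood apart, DOPA/HFS 3, with 4175 spots that the scanner software had marked as outliers and 238 saturated spots, against 2 to 25 and 63 to 105 on the other arrays. Outlier spots were left out, which removed the value of 4 members (Rpl15, Rps10, Rpl10a and Rpl3l) on that array and of Rps19 on HFS 3. In bulk tissue, fewer cells of a type and less RNA per cell cannot be told apart.

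Ribosomal protein genes were among the brightest on these arrays. Their median signal over all arrays was 15.23, against 8.71 for all genes tested, and 70 of 73 had a mean of 12 or more (95.9%, against 15.5% of all genes). The ordering reflects probes as well as RNA, and signals of different probes are not compared here as levels: the other probe of Rpl28 read 5.21 where the brightest read 14.86. The spread between arrays of a group was small, with a median residual SD of 0.17 for members and 0.27 for all genes.

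Saturation, where the scanner cannot read a higher signal, touched 19 of the 73 members on at least 1 array. It touched 5 to 12 members on each of the other 11 arrays and 19 on DOPA/HFS 3. Rplp1 (a protein of the stalk, the flexible arm of the large subunit that recruits elongation factors), Rps6 (the S6 kinase substrate) and Rps23 (a protein near the decoding site) were saturated on every array, so no fold change is given for them. The brightest members by mean signal included Rplp1, Rps16, Rpl37 and Rps6, each saturated on 6 or more arrays. The dimmest were Rps26 (4.81), the paralogs Rpl10l (8.20) and Rpl3l (9.04), then Rps7 (12.25) and Rpl22 (12.35).

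A name on this array does not guarantee that a probe reads 1 gene. Of the 110 member probes, 90 had an accession in the RefSeq gene table and 87 of those carried the same symbol there. The brightest probe of Rpl37 is placed on Rpl37l1, and that of Rpl36a on Rpl36al1. That table holds 1165 rat symbols under the naming rule, of which 1078 have the form of numbered copies and 858 are coded as pseudogenes, which resemble their parent genes in sequence. A further 370 probes outside the rule are described in the files as ribosomal proteins. Of all probes outside the rule, the RefSeq table places 8 under names that the rule would take, such as Arbp, which is Rplp0. The probe named Rps26 was near background, while a probe that RefSeq places on the pseudogene Rps26-ps13 read 13.11 on average. These genes are scattered in the genome: the 72 placed members lie on 19 chromosomes.

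The promoters share features that the naming rule did not use. RefSeq promoter entries on the GRCr8 build (250 bases before the start of transcription to 50 after it) matched 58 of the 73 members. A run of 8 or more C or T bases lying within 5 bases of the annotated start occurred in 36 of the 58 (62.1%), against 9.01% of all 27457 entries and 8.91% of the 5890 entries of genes tested on these arrays. The start base itself was C in 53.4% of members, 24.2% of all entries and 30.9% of entries of tested genes. Motif searches on both strands found TCTCGCGA in 11 members (19.0%, against 0.943% of all entries and 1.99% of tested genes). CCGGAAG, the core that ETS factors recognise, was in 19 members (32.8%, against 9.22% and 15.1%), and 4 of these also held TCTCGCGA. AAGATGGC, a motif of the factor YY1, was in 5 (8.62%, against 3.44% and 5.21%), of which 1 also held CCGGAAG and 0 held TCTCGCGA. A match is a description and shows no binding.

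The windows below run from 10 bases before the start to 19 after it, 5′ to 3′, with the C or T run in capitals. They show 6 members whose run lies wholly in the window and Rps4x, which has none, because Rpl10, Rps4x and Rpl13 recur in the comparisons and the others are common reference genes or stand at the ends of the signal range. Their places are chrX:157205840-157205869 (+) for Rpl10, chr19:68062504-68062533 (+) for Rpl13, chr10:83519054-83519083 (+) for Rpl19, chr8:71290853-71290882 (-) for Rplp1, chr20:4933735-4933764 (+) for Rps18, chr7:1643385-1643414 (-) for Rps26 and chrX:71342902-71342931 (-) for Rps4x.
Rpl10: gtgggagcgTCTCTTTTCCTCTggcgcggt
Rpl13: cggtgcccgaTCCTTTCCgctcggccgttc
Rpl19: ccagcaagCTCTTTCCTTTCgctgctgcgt
Rplp1: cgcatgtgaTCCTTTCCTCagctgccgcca
Rps18: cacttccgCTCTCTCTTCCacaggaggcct
Rps26: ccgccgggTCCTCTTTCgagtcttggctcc
Rps4x: cgcgcgcagcctccgaccctaatttcttcg

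With stimulation alone, ribosomal protein genes read slightly higher than in 6-OHDA under quantile normalization, but not under 75th percentile scaling. Of the 73 members, 53 were higher and 20 lower in HFS, with a median log2 fold change of 0.087 against 0.0087 for all genes, and under 75th percentile scaling the median was -0.0415 against -0.019 for all genes, with 27 higher and 46 lower. The median was 0.095 with a different background correction and 0.069 in the deposited table. Among large subunit genes 28 of 39 were higher (median 0.087) and among small subunit genes 24 of 30 (median 0.10), while under 75th percentile scaling the medians were -0.053 and -0.034. Other genes with a mean signal of 12 or more had a median of -0.0029, with 1530 higher and 1563 lower under quantile normalization. Under 75th percentile scaling the mean of the array medians went from 0.054 in 6-OHDA to -0.067 in HFS for these bright genes and from 0.061 to 0.0005 for the members, so that the bright genes fell more.

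No member was called in HFS: 0 of 73 passed an adjusted p under 0.1 with a fold over 1.2 or under 0.8 in limma, as did 0% of all genes. At an unadjusted p under 0.05, 3 members were higher (4.11%, against 1.21% of all genes) and 0 were lower (against 1.14%). All 3 HFS arrays lay above all 3 arrays of 6-OHDA for 12 of the 72 members with every value (16.7%, against 2.79% of all genes), but for 2 of 72 under 75th percentile scaling (2.78%, against 2.99%). The count was 9 of 72 (12.5%, against 2.55%) with a different background correction, 9 of 73 (12.3%, against 2.47%) in the deposited table and 15 of 72 (20.8%, against 2.89%) with all probes of a gene averaged. The 12 were 8 large subunit genes (Rpl3, Rpl9, Rpl10, Rpl11, Rpl18, Rpl24, Rpl27 and Rpl32) and 4 small subunit genes, Rps4x and Rps18 among them. Rpl9 was saturated on 4 arrays and Rps18 on 1, and among probes saturated on no array 11 of 58 lay above (19.0%, against 2.79%). Rpl28, of the large subunit, was the 1 member with all HFS arrays below (1.39%, against 2.34% of all genes).

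Per array, the median of the members' signals minus each gene's own mean over the 12 arrays was -0.071, 0.070 and 0.014 in 6-OHDA and 0.14, 0.069 and 0.11 in HFS. The lowest HFS array thus sat just under the highest 6-OHDA array. On 75th percentile scaling the values were -0.026, 0.39 and -0.19 in 6-OHDA and 0.20, -0.043 and -0.16 in HFS, so that the groups overlapped widely. Within the slides, the median difference between HFS and 6-OHDA was 0.20, 0.017 and 0.071 under quantile normalization and 0.22, -0.47 and 0.028 under 75th percentile scaling. It was 0.22, -0.059 and 0.044 with a different background correction and 0.20, -0.061 and -0.0098 in the deposited table, so that slide 1 alone was positive in all 4. The array 6-OHDA 2 had the highest scaled median, where other bright genes had 0.22. With the slide as a block in the fit, the HFS median was 0.086.

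**Figure D1:**
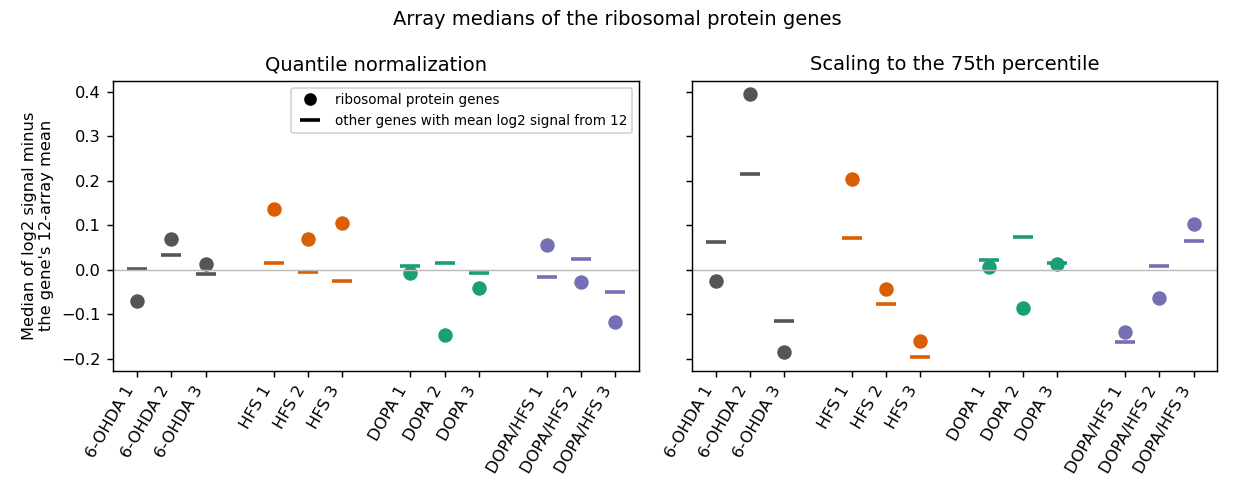
Median over the ribosomal protein genes (circles) and over other bright genes (bars) of the log2 signal minus each gene's mean over 12 arrays, for each array, under 2 scalings. Under quantile normalization the HFS arrays sit at 0.14, 0.069 and 0.11, while under 75th percentile scaling they spread from -0.16 to 0.20 and the difference from 6-OHDA turns around.

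Members among the furthest from 6-OHDA in HFS were Rpl10, Rps4x, Rpl7 and Rpl32. In the F test over the 4 groups, 0 members passed an adjusted p under 0.1 (against 0.00489% of all genes), and 1 had an unadjusted p under 0.05 (1.37%, against 2.82%).

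Rpl10 encodes a late-joining large subunit protein near the peptidyl transferase centre. It read 14.90, 14.89 and 15.19 in 6-OHDA and 15.31, 15.31 and 15.50 in HFS. In DOPA the arrays read 15.16, 14.92 and 15.16, and in DOPA/HFS 15.45, 15.09 and 14.89. All HFS arrays lay above 6-OHDA and DOPA, while DOPA/HFS overlapped with each group. The HFS log2 fold change was 0.38 (SE 0.17, unadjusted limma p = 0.0455, adjusted p = 0.998, exact permutation p = 0.1). The exact two-sided permutation test allows no p under 0.1 with 3 arrays against 3. A second Rpl10 probe had a fold change of 0.058.

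Rps4x is the X-linked gene of a small subunit protein. Its signal was 13.04, 13.04 and 13.33 in 6-OHDA and 13.47, 13.52 and 13.45 in HFS. The other arrays read 13.23, 12.96 and 13.11 in DOPA and 13.44, 13.24 and 13.16 in DOPA/HFS. The HFS arrays were the highest of the 12. The HFS log2 fold change was 0.34 (SE 0.14, unadjusted limma p = 0.0341, adjusted p = 0.998, exact permutation p = 0.1). Under 75th percentile scaling the fold changes of Rpl10 and Rps4x were 0.24 and 0.25, and no member had an unadjusted p under 0.05 there.

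Rpl7, whose protein binds RNA in the large subunit, read 15.89, 15.45 and 16.08 in 6-OHDA against 15.88, 16.22 and 16.32 in HFS, with overlap and a fold change of 0.33 (SE 0.23, exact permutation p = 0.3). Rpl32, often used as a reference gene, read 15.81, 16.20 and 16.30 against 16.41, 16.38 and 16.44, without overlap (0.31, SE 0.18, exact permutation p = 0.1). Rpl3, which helps to form the peptidyl transferase centre, read 13.64, 13.35 and 13.68 against 13.81, 13.88 and 13.88, also without overlap (0.30, SE 0.17, exact permutation p = 0.1). None of these reached an unadjusted p under 0.05 in limma. Under 75th percentile scaling the fold changes of Rpl7 and Rpl32 were 0.14 and 0.096. Rpl7 had 0.15 without 6-OHDA 2, and Rpl32 0.17 without 6-OHDA 1.

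Choroid plexus markers moved with the HFS arrays. Of 12 marker genes on the array 9 passed the filter, and all 9 were higher in HFS at an unadjusted p under 0.05, with 0 called after adjustment and a median log2 fold change of 2.28. Ttr (transthyretin, 8.27) and Kcnj13 (a potassium channel, 5.37) were furthest, Enpp2, which oligodendrocytes also make, was the brightest of them on every array, and Kl, Prlr and Kcne2 did not pass the filter. Their summed signal, as log2, was 11.84, 11.83 and 12.64 in 6-OHDA, 16.56, 13.31 and 15.81 in HFS, 11.86, 12.43 and 14.33 in DOPA, and 12.49, 12.18 and 12.01 in DOPA/HFS. Under quantile normalization HFS 2, with the lowest marker signal of its group, also had the lowest median of ribosomal protein genes there (0.069). DOPA 3, with more marker signal than HFS 2, had a median of -0.042. Under 75th percentile scaling HFS 3 had the lowest median of its group (-0.16, against -0.043 for HFS 2). HFS 3 was also lowest in the deposited table (0.030, against 0.054 for HFS 2). The part of these markers in the ribosomal protein values was not tested.

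Markers of other cells had few genes under an unadjusted p of 0.05 in HFS. Leptomeningeal genes had a median of 0.23, with 2 of 9 higher at an unadjusted p under 0.05 and Igfbp2 at 1.82. Striatal projection neuron genes had a median of -0.019 (1 of 15 higher), microglial genes -0.048 (1 of 13 higher) and endothelial genes -0.047 (0 of 12). Astrocyte genes had 0.14 (0 of 9), oligodendrocyte genes 0.049 (0 of 11), ependymal genes 0.46 (0 of 3) and cortical neuron genes 0.38 (0 of 3). None was called after adjustment in limma. In DOPA the choroid plexus genes had a median of 0.38 (7 of 9 higher) and the endothelial genes 0.19 (10 of 12 higher), with 0 under 0.05 in each, and the part of these markers in the DOPA values of ribosomal protein genes was not tested either.

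With L-DOPA alone, most ribosomal protein genes read slightly lower than in 6-OHDA. Of the 73, 55 were lower and 18 higher, with a median log2 fold change of -0.053 against -0.010 for all genes, and the median was also negative under 75th percentile scaling (-0.088), a different background correction (-0.060) and in the deposited table (-0.073). Large subunit genes (32 of 39 lower, median -0.079) and small subunit genes (22 of 30 lower, -0.049) read lower too, also under 75th percentile scaling (-0.10 and -0.066). The array medians were -0.0073, -0.15 and -0.042 in DOPA, and DOPA 2 alone lay below all 6-OHDA arrays. Within slides the differences were 0.081, -0.18 and -0.051, so that 1 slide went the other way, and under 75th percentile scaling they were 0.045, -0.46 and 0.15. Without DOPA 2 the median was -0.015, and without 6-OHDA 2 it was -0.027. With the slide as a block it was -0.053.

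In DOPA 0 of 73 members were called in limma (against 0.00489% of all genes), and at an unadjusted limma p under 0.05 there were 0 higher (against 1.32%) and 0 lower (against 1.28%). All DOPA arrays lay below all 6-OHDA arrays for 5 of 73 members (6.85%, against 3.12% of all genes), and above for 0 (against 3.16%). These were Rpl28, Rps12, Rps19, Rps27 and Rpl8, which was saturated on 8 of the 12 arrays, so that its order says little. Among probes saturated on no array 3 of 59 lay below (5.08%, against 3.07%). Under 75th percentile scaling 1 of 73 lay below (1.37%, against 3.10%). The count was 6 of 73 (8.22%, against 3.24%) with a different background correction and 7 of 73 (9.59%, against 3.32%) in the deposited table. With all probes of a gene averaged it was 6 of 73 (8.22%, against 3.06%).

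Rps19, the small subunit gene mutated in many patients with Diamond-Blackfan anaemia, read 14.82, 15.10 and 14.84 in 6-OHDA and 14.70, 14.55 and 14.69 in DOPA. The groups did not overlap, and the fold change was -0.27 (SE 0.16, exact permutation p = 0.1). Rpl28 read 14.93, 15.00 and 15.00 in 6-OHDA, 14.79, 14.83 and 14.83 in HFS and 14.81, 14.85 and 14.68 in DOPA. Both treated groups lay below 6-OHDA, by -0.16 in HFS and -0.20 in DOPA (SE 0.13 each), and they share that control. Its dim probe had fold changes of 0.12 and 0.62 there.

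Other members far from 6-OHDA in DOPA rested on overlapping or dim arrays. Rpl10l, a paralog of Rpl10 known for its role in the testis, read 7.75, 7.95 and 7.97 in 6-OHDA, 7.37, 9.97 and 7.12 in HFS, 8.81, 7.30 and 9.12 in DOPA and 8.23, 8.33 and 8.44 in DOPA/HFS. One HFS array stood far above the other arrays of its group, and DOPA spanned the 6-OHDA values. The DOPA fold change was 0.52 (SE 0.66, exact permutation p = 0.4), and ranged from 0.17 to 1.08 with single arrays left out. Rps26, a small subunit protein at the messenger exit channel, read 4.57, 5.76 and 4.57 in 6-OHDA against 4.46, 4.40 and 4.65 in DOPA (-0.46, SE 0.34, exact permutation p = 0.3), with 6-OHDA 2 apart from its group. Without that array the Rps26 fold change was -0.062, and with a different background correction it was -0.15. Rps15 had -0.25 (SE 0.24), with overlap, and ranged from -0.42 to -0.16 with single arrays left out.

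With both treatments, the median of the list lay slightly below 0, but the slides disagreed and it rested much on single arrays. Of the 73 members, 46 were lower and 27 higher than in 6-OHDA, with a median of -0.035 against -0.012 for all genes. Without DOPA/HFS 3 the median was 0.0010, without 6-OHDA 2 it was -0.0013, and with the slide as a block it was -0.045. It was also negative under 75th percentile scaling (-0.10, against -0.037 for all genes). With a different background correction it was -0.013, close to the all-gene median of -0.0094. In the deposited table, where the all-gene median shifted to -0.11, the members' median was -0.062, which is 0.045 above it. The array medians were 0.056, -0.029 and -0.12 in DOPA/HFS, and overlapped with those of 6-OHDA. Within slides the median difference was 0.11, -0.064 and -0.13, and under 75th percentile scaling -0.11, -0.49 and 0.33, so that slides 1 and 3 turned around.

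Again 0 of 73 members were called in DOPA/HFS in limma (against 0% of all genes). At an unadjusted limma p under 0.05, 1 member was higher (1.37%, against 0.832% of all genes) and 0 lower (against 1.94%). Of 69 members with every value, Rpl10l alone had all DOPA/HFS arrays above 6-OHDA (1.45%, against 1.74%), and 0 lay below (against 2.45%). With a different background correction 2 of 69 lay above (2.90%, against 1.56%) and 3 below (4.35%, against 2.43%). For the deposited table the counts were 0 of 73 above (against 0.631%) and 4 below (5.48%, against 4.59%).

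**Figure D2:**
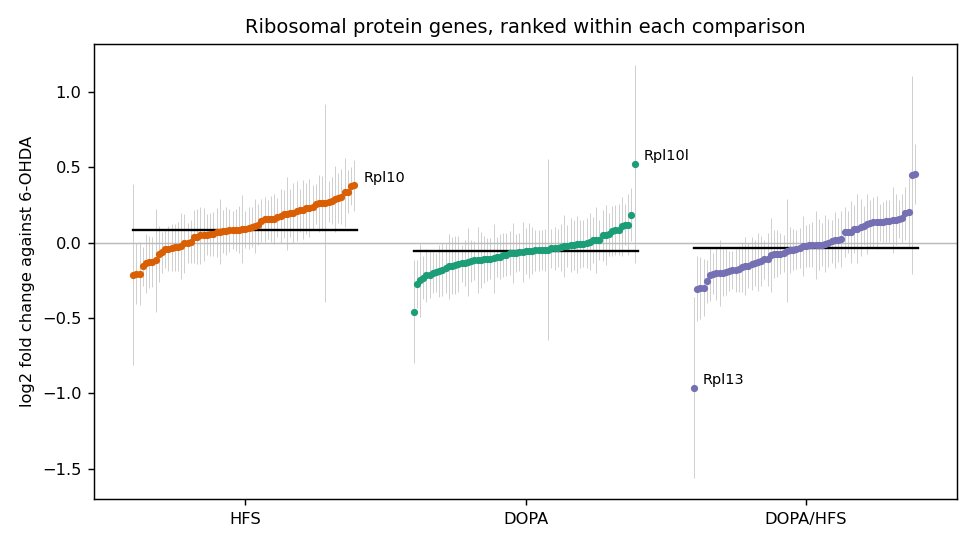
Log2 fold change against 6-OHDA of the ribosomal protein genes in each treatment, ranked within the comparison, with standard errors from limma and the median of the 73 genes as a black line. The 3 genes saturated on all 12 arrays are not drawn. Medians are 0.087, -0.053 and -0.035 under quantile normalization, and -0.0415, -0.088 and -0.10 under 75th percentile scaling.

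Rpl7a, of the large subunit, read 15.78, 15.57 and 16.03 in 6-OHDA, 15.92, 15.92 and 16.21 in HFS, 15.96, 15.67 and 15.91 in DOPA and 16.30, 15.88 and 16.58 in DOPA/HFS. One DOPA/HFS array lay within the 6-OHDA range and the other two above it. The DOPA/HFS fold change was 0.46 (SE 0.20, unadjusted limma p = 0.0414, adjusted p = 0.9997, exact permutation p = 0.2). Its probe was saturated on 1 array, DOPA/HFS 3, which gave the highest reading, and without that array the fold change was 0.30.

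Rpl13, also of the large subunit, read 15.58, 16.18 and 16.17 in 6-OHDA, 15.54, 15.64 and 16.11 in HFS, 16.12, 16.32 and 15.33 in DOPA and 13.23, 15.80 and 16.01 in DOPA/HFS. A single array, DOPA/HFS 1, was low. Its fold change of -0.96 (SE 0.60, exact permutation p = 0.5) became -0.070 without that array, where the second Rpl13 probe read 14.75, within the range of its other arrays.

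Among the rest, Rpl34 had -0.31 (SE 0.22) and Rpl36a -0.30 (SE 0.21) in DOPA/HFS, both of the large subunit and both with overlap. Each was highest on 6-OHDA 2, at 13.80 against 12.95 and 13.02 for Rpl34 and at 15.46 against 14.84 and 14.81 for Rpl36a. Without that array the fold changes were -0.036 and -0.087. 6-OHDA 2 also gave the highest reading for the expressed sequence tag probes named Rps15 (10.62) and Rpl37 (9.42).

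**Figure D3:**
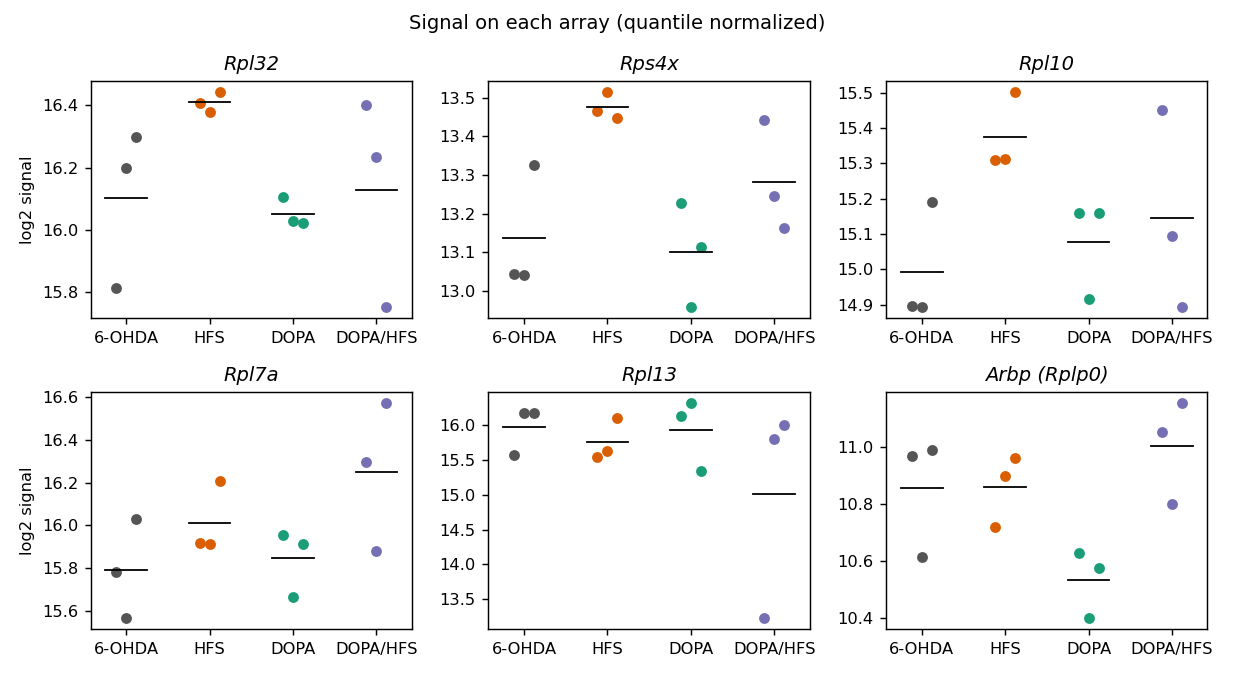
Log2 signal on each array (points) and group mean (lines) for 6 genes, each on its own axis, which does not start at 0. For Rps4x the HFS arrays are the highest of all 12, for Rpl13 the array DOPA/HFS 1 is low at 13.23, and for Arbp, the name of Rplp0 in the files, the DOPA arrays (10.40 to 10.63) lie below those of HFS and DOPA/HFS.

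The design also allows the effect of stimulation to be compared with and without L-DOPA. For 0 of 73 members did the difference pass an adjusted p under 0.1 in limma (against 0% of all genes), and for 0 was the unadjusted p under 0.05 (against 1.99%). The median difference was -0.083 against -0.0094 for all genes, with 53 members negative and 20 positive, but 0.042 under 75th percentile scaling, with 44 positive. Choroid plexus genes had a median difference of -2.79, with 0 of 9 positive and 5 lower at an unadjusted limma p under 0.05. The part of these markers in the ribosomal protein values was not tested here either. For Rps4x the difference was -0.16 (SE 0.20) and for Rpl10 -0.31 (SE 0.24), each with an adjusted p of 1. These tests show neither a difference between the 2 stimulation effects nor that they are alike.

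By role, no stalk protein was called by limma in any comparison. Rplp2, which pairs with Rplp1, read 15.07, 15.26 and 15.12 in 6-OHDA, 15.24, 15.22 and 14.87 in HFS, 15.15, 15.03 and 15.10 in DOPA and 14.84, 15.18 and 14.90 in DOPA/HFS, with overlap throughout. Rplp0, the base of the stalk, is named Arbp in the files and read 10.97, 10.61 and 10.99 in 6-OHDA, 10.72, 10.90 and 10.96 in HFS, 10.63, 10.40 and 10.58 in DOPA and 11.05, 10.80 and 11.16 in DOPA/HFS. The DOPA arrays were low: they overlapped with 1 array of 6-OHDA, and all HFS and DOPA/HFS arrays lay above them. Its fold change was -0.32 in DOPA (exact permutation p = 0.2), and the difference between the stimulation effects with and without L-DOPA was 0.47 (adjusted p = 1).

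Several members serve as reference genes. Rpl13a read from 15.81 to 16.52 over the 12 arrays and its HFS, DOPA and DOPA/HFS fold changes were 0.041, -0.22 and -0.21 (SE 0.18 each). Rpl19 read from 14.50 to 15.08, with 0.20, -0.0064 and 0.13 (SE 0.16 each). Rps18 read 16.07, 16.05 and 16.02 in 6-OHDA and 16.45, 16.08 and 16.08 in HFS, so that its lack of overlap (0.16, SE 0.16) came with a gap far smaller than the spread of HFS. None of the 3 was called by limma in any comparison.

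The remaining roles gave values of the same size. Rps27a, made as a fusion of a ribosomal protein with ubiquitin, had -0.13, 0.079 and -0.16 in HFS, DOPA and DOPA/HFS (SE 0.17 each), and Fau, a fusion with a ubiquitin-like protein, had -0.014, -0.16 and -0.070. Rpl3l, the muscle paralog of Rpl3, had -0.21, 0.12 and -0.014. Rpl22 had -0.14, -0.15 and -0.16 (SE 0.19 each), with overlap in each comparison.

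Where a gene had more than 1 probe above background, the probes often differed. This held for 24 members with 60 probes. All probes of a gene had the same sign for 14 genes in the HFS comparison, 16 in that of DOPA and 17 in that of DOPA/HFS. The median gap between a gene's highest and lowest fold change was 0.18, 0.11 and 0.18. The widest gaps were those of Rpl28 (0.82) in the DOPA comparison and Rpl13 (0.95) in that of DOPA/HFS. These gaps exceed the list medians.

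Genes that work beside the ribosomal proteins gave no calls in limma in any treatment. The 5 tested ribosomal protein genes with other names had HFS, DOPA and DOPA/HFS medians of 0.0038, -0.16 and 0.0076 under quantile normalization, with Arbp and Rpsa (-0.26 in DOPA) furthest and 0 at an unadjusted p under 0.05. Elongation factors (10 genes) had 0.14, -0.021 and 0.0090, with Eef2 at 0.32 and Eef1e1 at 0.31 in HFS, and 0 under 0.05. Initiation factors (26) had 0.030, 0.087 and 0.070, with Eif4g3 at 0.91 in DOPA/HFS and -0.40 in HFS, and 1 under 0.05, in DOPA. Ribosome biogenesis genes (31) had 0.092, 0.011 and 0.0064, with Taf1a at 0.35 and Gtpbp4 at 0.32 in HFS, and 0 under 0.05.

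Genes of mTORC1 and S6 kinase signalling (28) had medians of 0.066, 0.055 and -0.067, with Sesn3 at -0.89 in DOPA/HFS and Rps6ka6 at -0.54 in HFS, and 1 under 0.05, in DOPA/HFS. Mitochondrial ribosomal protein genes, which build the separate ribosome of mitochondria, had medians of 0.0056, 0.012 and -0.014 over 64 genes. Of these Mrps10 (-0.81 in HFS) and Mrpl43 (0.71 in DOPA/HFS) were furthest, and 1 was under 0.05 in HFS and 1 in DOPA/HFS. For comparison, Pdyn, the prodynorphin gene of striatal projection neurons, had a fold change of 1.40 in DOPA (exact permutation p = 0.1, adjusted limma p = 0.843).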

How the data were processed

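RNA from 12 rat striata was hybridised to single-colour Agilent arrays in 4 groups of 3. The intensity of each spot was taken from the scanner files deposited by the authors (Feature Extraction 9.1, local background subtracted, no normalization between arrays). The deposited table holds log2 values that the authors quantile normalized, and served as an alternative. Control and outlier spots were left out, intensities were taken to log2, quantile normalized and averaged per probe, and a probe was kept if it was well above background on 0.4 of the arrays or more. The brightest probe of each gene entered limma 3.58.1 (R 4.3.3, jsonlite 2.0.0, data.table version 1.17.8), with Benjamini-Hochberg adjustment over all 20439 genes. The fit was tested on simulated data with changes much larger than those of the members. That test does not bear on small changes. Single genes were also tested by exact two-sided permutation.

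The members and lists were chosen with earlier results of these data known. Described members were fixed by rule: named roles, the 5 brightest and 5 dimmest, and per comparison the 5 largest fold changes and those with an unadjusted p under 0.05. Members whose groups do not overlap were named from their values. The values of some members that these rules take are not reported.

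Replicate numbers were checked: pairs of arrays with the same number had correlations, after group means were removed, of -0.29 to 0.48 (median 0.11), over 0.1 in 10 of 18 pairs, against a median of -0.069 and 7 of 36 for other pairs from different groups. Same-numbered arrays, which share a slide, thus tended to be more alike, but arrays were not paired, as the rule set beforehand asked for every pair over 0.1. The slide was tried as a block. Other alternatives were 75th percentile scaling, normexp correction (offset 50), no filter, the mean of all probes, unsaturated probes, no fold limit, an adjusted p under 0.05, fits of only the 6 arrays compared and leaving out each array. Keeping outlier spots, and counting groups without overlap under other settings, were chosen after seeing the data.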

Additional observations from a re-analysis of the deposited data

How the results depend on the processing

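The count of ribosomal protein genes called by limma was 0 in every comparison under every alternative and with each array left out. The fold changes of the members with the 5 largest values per comparison kept their sign throughout. Under 75th percentile scaling the list median of HFS went from 0.087 to -0.0415 and that of the difference between the stimulation effects from -0.083 to 0.042. The HFS move exceeded the SD between array medians of a group under quantile normalization (0.069) but not under that scaling (0.19), and the cause was not tested. Under that scaling the members with all HFS arrays above 6-OHDA numbered 2, not 12, and those with all DOPA arrays below numbered 1, not 5, and the cause was not tested. With probes saturated on no array the latter count was 3 of 59, where fewer genes were tested. With single arrays left out, the medians ranged from 0.072 to 0.12 in HFS, from -0.095 to -0.015 in DOPA and from -0.085 to 0.0010 in DOPA/HFS, which changed sign without DOPA/HFS 3. With outlier spots kept, an alternative chosen after seeing the data, the all-gene median of DOPA/HFS shifted to -0.14 and that of the members was -0.073. Slide blocks gave 0.086, -0.053 and -0.045. Signal over background did not limit these bright genes, except Rps26 and Rpl37a, but saturation did.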
